A study of Mus musculus with 62 samples.

Results

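Basement membrane genes were examined in single KPC1199-EGFP cells, a mouse pancreatic cancer line that expresses EGFP and has a C57BL\6 strain background. The 9 genes were chosen by name: the laminin chains Lama3, Lama5, Lamb2, Lamb3 and Lamc1, the type IV collagen chains Col4a1 and Col4a2, and the linker proteins perlecan (Hspg2) and nidogen-1 (Nid1). All 9 had a row among the 19112 gene rows of the deposited table. The 62 libraries each came from 1 cell of untreated adherent cells at passage 9, with no separate cultures named, trypsinised and amplified on the Fluidigm C1 system with Nextera XT libraries. In the study these cells were the cultured control for tumours grown from the line in mice. They form 1 group, so values are described over cells, and no test between groups was made. They stand for the line in 2D culture, without the stroma of a tumour.

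The description uses the 50 libraries in which synthetic ERCC spike-in RNA took under 20% of all counts. Their spike-in share ranged from 0.190% to 1.83%, and that of the other 12 from 22.3% to 97.2%. Gene counts in the 50 ran from 2153895 to 12868806, with a median of 8830.5 genes above 0. The epithelial label was read from 9 measured tumour-cell markers, of which 8 were found in 25 or more of the 50 libraries. Krt8, Krt18, Krt19, Cdh1 and Spp1 were above 0 in all 50, and Epcam, the one below the mark, in 18. Of the cell types that lay down basement membrane in tissue, endothelial cells had 9 measured markers. Pecam1, Cdh5, Kdr, Tek, Emcn and Vwf were at 0 in all 50 libraries, while Egfl7 was above 0 in 20 and Eng in 5. The summed endothelial level ran from 0 to 215 CPM (counts scaled to a common library total of 1000000 gene counts), with a median of 0. Of 10 fibroblast and stellate cell markers 6 were at 0 throughout, among them Col1a2, Dcn, Lum and Pdgfrb. Acta2 and Col1a1 were above 0 in 45 and 41 libraries, but reached 1 CPM in 5 and 1, and the summed level ran from 0.136 to 104 CPM with a median of 0.683. Of 9 immune markers 5 were at 0, and Cd14 and Itgam were above 0 in 49 and 23 libraries. The summed immune level ran from 0.808 to 485 CPM with a median of 99.1. Most of it was Cd14, which alone had a median of 97.2 CPM and a highest value of 485 CPM. Itgam reached 1 CPM in 1 library, and Ptprc was above 0 in 1. Cd68 was above 0 in 10 libraries and reached 1 CPM in 8, with a highest value of 33.3 CPM. The part of RNA from other cells in the values below was not tested.

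The basement membrane is a thin sheet on which epithelial cells rest. Laminins are cross-shaped trimers of an alpha, a beta and a gamma chain, put together inside the cell before secretion. Outside the cell they polymerise and bind integrins and dystroglycan. Type IV collagen trimers form a separate network, and in most tissues they are made of Col4a1 and Col4a2 chains. Nidogen-1 and perlecan link the laminin and collagen networks. Lama3 and Lamb3 chains belong to the laminin of epithelial hemidesmosomes, while Lama5 pairs with Lamb1 or Lamb2 and with Lamc1 in the laminins of many epithelia and vessels. Pancreatic duct cells rest on a basement membrane, and invading carcinoma cells cross it.

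Promoter windows of 7 of the 9 genes matched by symbol in the RefSeq promoter table for build GRCm38.p6 (250 bases before to 50 after a start site). Col4a1 and Col4a2 lie head to head on opposite strands, and their RefSeq start sites overlap by 22 bases at chr8:11312805-11312826. This stretch is shown because the first bases of both type IV collagen transcripts come from it. It is given first as read on the + strand for Col4a2, then on the - strand for Col4a1. CpG dinucleotides are in capitals.
Col4a2: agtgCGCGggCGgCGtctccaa
Col4a1: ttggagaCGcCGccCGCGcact

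The stretches before the start sites of Nid1, Lama5 and Lamb3 are shown to set 2 widely found genes beside a rarely found one. Those of Lamb2 and Hspg2, which were above 0 in 26 and 27 libraries, are not shown. Their windows held 4 and 27 CpG, so the stretches shown do not stand for all the genes. They were cut to the bases that lie in no annotated exon. They are chr13:13437352-13437550 on the + strand for Nid1, chr2:180225905-180226109 on the - strand for Lama5 and chr1:193301744-193301992 on the + strand for Lamb3, all in GRCm38.p6. CpG dinucleotides are again in capitals.
Nid1: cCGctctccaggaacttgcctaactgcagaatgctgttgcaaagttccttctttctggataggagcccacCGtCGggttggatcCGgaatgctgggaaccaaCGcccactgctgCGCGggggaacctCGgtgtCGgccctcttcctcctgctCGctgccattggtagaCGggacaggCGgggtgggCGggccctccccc
Lama5: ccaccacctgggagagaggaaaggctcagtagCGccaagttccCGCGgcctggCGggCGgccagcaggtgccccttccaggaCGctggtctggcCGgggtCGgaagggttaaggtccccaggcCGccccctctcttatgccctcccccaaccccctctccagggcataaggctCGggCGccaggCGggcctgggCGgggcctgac
Lamb3: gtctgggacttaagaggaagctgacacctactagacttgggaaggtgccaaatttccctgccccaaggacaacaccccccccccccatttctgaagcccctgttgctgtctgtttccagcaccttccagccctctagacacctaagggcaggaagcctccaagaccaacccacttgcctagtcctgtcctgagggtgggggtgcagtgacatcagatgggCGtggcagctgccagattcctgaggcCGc

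CpG was dense in 5 of the 7 genes and sparse in 2. The whole 300-base windows held 37 CpG for Col4a1, 33 for Col4a2, 27 for Hspg2, 24 for Lama5 and 20 for Nid1. The Lamb2 window held 4, and the 2 windows listed for Lamb3 held 2 and 5. The median over all 32851 windows in the table was 7. The motif GGGCGG, searched on both strands, was in the windows of the 5 CpG-dense genes and in none of those of Lamb2 and Lamb3. It occurs in 35.7% of all windows, and since it contains a CpG it is not independent of the CpG count. Lama3 and Lamc1 had no matched window. Of the 7 genes with one, Lamb3 and Lamb2 were the least often above 0, in 7 and 26 libraries. Hspg2, with dense CpG, came next at 27, so CpG density and detection did not run in parallel throughout. A relation between them was not tested.

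A gene was counted as widely found when at least 25 of the 50 libraries held a count above 0. By this mark 7 of the 9 genes were widely found, as were 48.6% of all gene rows. Nid1, Col4a1, Lamc1, Lama5 and Col4a2 formed a widely detected group, found in 42 to 49 libraries. Hspg2 and Lamb2 passed the mark narrowly, in 27 and 26 libraries. Lamb3 was above 0 in 7 libraries and Lama3 in 1. When a library had to reach 1 CPM, 5 of the 9 met the mark, against 42% of all rows, and the same number was reached with detection at 10 estimated counts, against 41.1%. After thinning every library to 100000 gene counts it was again 5, against 34.4%. The genes that passed under each of these settings were the 5 of the widely detected group.

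**Figure D1:**
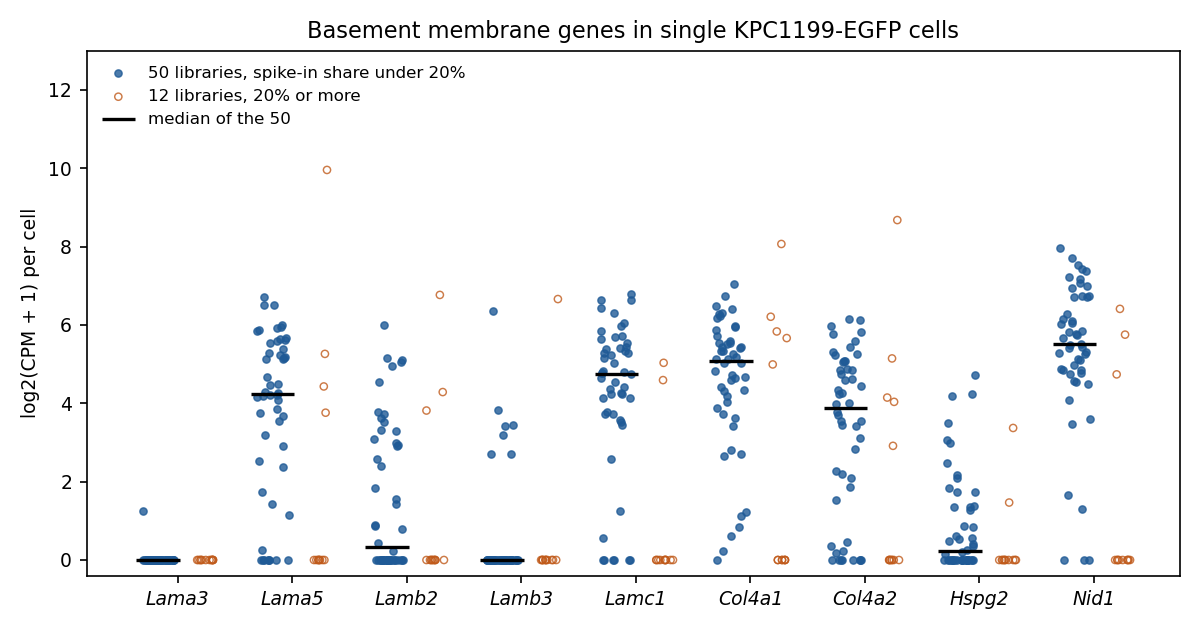
Level of each of the 9 genes in each cell, as log2(CPM + 1), with filled points for the 50 libraries used, open points for the 12 spike-in-rich libraries and a bar at the median of the 50. Nid1 has the highest median, at 5.51, and Lama3 and Lamb3 have medians of 0.

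Among the alpha chains, Lama5 was widely found and Lama3 was found in 1 library. Lama5, the alpha chain of laminins found under most mature epithelia, was above 0 in 42 of 50 libraries (84%, exact 95% interval 70.9 to 92.8, covering the sampling of cells only). Its level ran from 0 to 104 CPM, with a median of 17.9, and stood at 3.75 ± 2.16 (SD, n = 50) on the log2(CPM + 1) scale. Libraries 58, 54 and 6 were highest, and 8 libraries were at 0. Its log2 level had r = 0.32 with the number of genes above 0 over the 50 libraries, the largest such value of the 9 genes. With the log2 of the gene counts its r was -0.16. The part of depth and of the number of genes found in its level was not tested. Lama3, the alpha chain of hemidesmosomal laminin, was above 0 only in library 44, with 8 counts or 1.38 CPM. That single cell gives a share of 2.00% (exact 95% interval 0.0506 to 10.6), and after thinning no library held a count.

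Of the other alpha chain genes, Lama1, Lama2 and Lama4, which are typical of early epithelia, muscle and vessels, were each at 0 in all 50 libraries. Taking 3 counts as the limit that a count of 0 allows, 0 of 50 leaves room for a share of up to 6.00% of cells with a count, for sampling error only. Lama5 was therefore the one alpha chain found in more than 1 library.

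The beta chains were split between genes. Lamb2, found in many adult basement membranes, was above 0 in 26 libraries (52%, exact 95% interval 37.4 to 66.3). Its level ran from 0 to 63.3 CPM with a median of 0.266, at 1.54 ± 1.89 on the log2(CPM + 1) scale (SD, n = 50). A few cells held most of it: the 5 highest libraries carried 59.2% of its summed CPM, led by library 33. Lamb1, the beta chain of widely expressed laminins, is not among the 9 genes but completes a trimer with Lama5 and Lamc1. It was above 0 in 36 libraries, with a median of 18.5 CPM and a highest value of 100.3 CPM. Both were above 0 in 19 libraries and at least 1 of them in 43, and 5 libraries lacked all of Lamb1, Lamb2 and Lamb3.

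Lamb3, the beta chain of hemidesmosomal laminin, was above 0 in 7 libraries (14%, exact 95% interval 5.82 to 26.7). Library 17 stood apart at 80.5 CPM, from 726 counts, and carried 60.8% of the summed CPM. The other 6 libraries, 14, 22, 28, 35, 36 and 44, lay between 5.52 and 13.2 CPM. The smallest of the 7 values was 14 estimated counts, in library 28, and after thinning Lamb3 was left in 4 libraries. How many captured molecules lay behind these counts was not tested. Lamb3 thus appeared in few cells, with a median of 9.75 CPM in those 7.

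Lamc1, the gamma chain of most laminins, was above 0 in 44 libraries (88%, exact 95% interval 75.7 to 95.5). It ran from 0 to 110 CPM with a median of 26, at 4.2 ± 1.97 on the log2(CPM + 1) scale (SD, n = 50). Libraries 58, 55 and 11 were highest, and 6 were at 0.

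The genes for complete laminins of Lama5 were then counted within single cells. Lama5, Lamb1 and Lamc1 were together above 0 in 30 libraries (60%, exact 95% interval 45.2 to 73.6). Lama5, Lamb2 and Lamc1 were together above 0 in 22 (44%, exact 95% interval 30 to 58.7). Either of these sets was complete in 35 libraries and both in 17. The counts that the single-gene shares alone would give for these sets were not computed. After thinning to 100000 gene counts, the Lamb1 set was complete in 19 libraries and the Lamb2 set in 7, so both counts fell with depth. A library at 0 for a chain does not show that the cell lacks it.

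Both type IV collagen chains were widely found. Col4a1 was above 0 in 49 libraries (98.0%, exact 95% interval 89.4 to 99.9), more than any other of the 9 genes. Its level ran from 0 to 131 CPM with a median of 33, at 4.53 ± 1.76 on the log2(CPM + 1) scale (SD, n = 50). Library 10 was highest and library 11 was the one at 0. Col4a2, whose product joins Col4a1 chains in the trimer, was above 0 in 42 libraries (84%). It ran from 0 to 70.1 CPM with a median of 13.8, at 3.29 ± 2.10 on the log2(CPM + 1) scale (SD, n = 50), with libraries 19 and 12 highest. By counts above 0, 42 libraries had both, 7 had Col4a1 alone and 0 had Col4a2 alone. Since library 11 alone was at 0 for Col4a1, at most 1 library could have had Col4a2 alone. The counts that the single-gene shares alone would give were not computed. At 1 CPM, 36 libraries had both and 2 had Col4a2 alone. After thinning 25 had both and 3 had Col4a2 alone, so the lack of cells with Col4a2 alone did not hold at these settings.

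Per kilobase of transcript, Col4a1 exceeded Col4a2 in 33 of 50 libraries. In the 42 libraries with both, the log2 ratio of Col4a1 to Col4a2 per kilobase had a median of 0.36 and ran from -3.97 to 9.56, with an SD of 2.60. In 7 of these libraries at least 1 of the genes had fewer than 10 counts, and the highest ratio, in library 52, set 775 counts of Col4a1 against 1 of Col4a2. In the other 35 the ratio had a median of 0.39 and ran from -3.18 to 3.72, with an SD of 1.6. The measured ratios thus lay on both sides of equality, and the part of capturing few molecules in their spread was not tested. The log2(CPM + 1) levels of the 2 genes had Pearson r = 0.28 and Spearman rho = 0.19 over the 50 libraries, which share 1 group of cells and scaling to a common total. That r was 0.14 without the 2 libraries farthest from the median of Col4a1, and 0.38 after thinning. Over all pairs of the 9282 widely found genes, the median r was 0.027 and 95% had an r below 0.29, so the pair lay in the upper part of that range but under its 95% point. The same range was not computed after thinning.

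**Figure D2:**
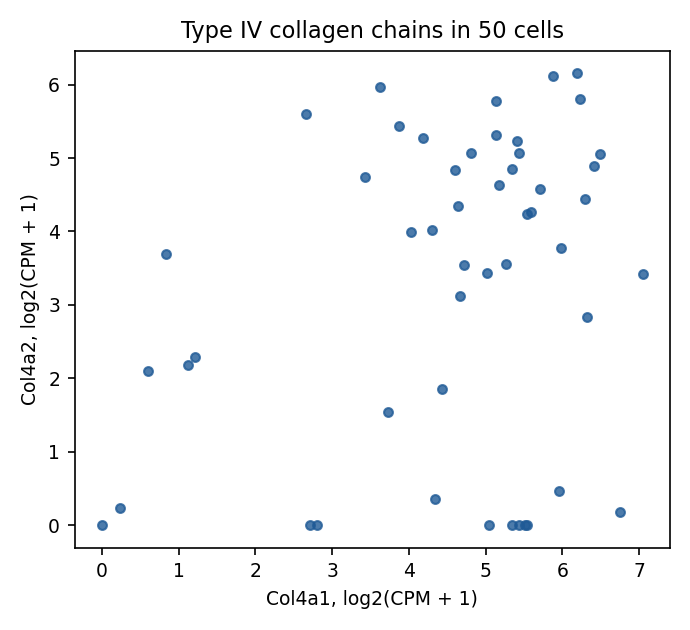
Col4a2 against Col4a1 in each of the 50 libraries, both axes as log2(CPM + 1), 1 point per cell. The points scatter widely (r = 0.28), with 7 cells at 0 for Col4a2 while Col4a1 was above 0, and 0 cells the other way round. Only 1 cell was at 0 for Col4a1, so at most 1 could lie the other way round.

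Of the other type IV collagen genes, Col4a6 was at 0 in all 50 libraries, Col4a4 was above 0 in 1 and Col4a5 in 14. Col4a3 was above 0 in all 50, but at a median of 0.993 CPM, and it was also above 0 in all 12 spike-in-rich libraries, where Col4a1 was above 0 in 5.

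The linker genes differed in how often they were found. Nid1, nidogen-1, was above 0 in 47 libraries (94.0%, exact 95% interval 83.5 to 98.7). Its level ran from 0 to 249 CPM with a median of 44.5, at 5.29 ± 1.92 on the log2(CPM + 1) scale (SD, n = 50). Library 50 was highest, followed by 6 and 37, and libraries 3, 9 and 47 were at 0. Nid1 made up 34.6% of the summed CPM of the 9 genes. Nid2, its paralogue, was above 0 in 10 libraries. Hspg2, perlecan, the large heparan sulphate proteoglycan, was above 0 in 27 libraries (54%, exact 95% interval 39.3 to 68.2). Its level ran from 0 to 25.2 CPM with a median of 0.175, at 0.91 ± 1.29 on the log2(CPM + 1) scale (SD, n = 50). Many of these detections were thin, since 16 libraries reached 1 CPM and 14 held at least 10 counts. Libraries 39, 57 and 37 were highest, and the 5 highest carried 68.3% of the summed CPM.

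Per kilobase of the longest annotated coding transcript, the order of mean log2(CPM per kilobase + 1) was Nid1 (3.04 ± 1.37), Col4a1 (2.31 ± 1.15), Lamc1 (1.98 ± 1.12), Col4a2 (1.56 ± 1.17), Lama5 (1.41 ± 1.02), Lamb2 (0.69 ± 0.98), Lamb3 (0.26 ± 0.74), Hspg2 (0.17 ± 0.33) and Lama3 (0.0036 ± 0.025), each as mean ± SD over 50 cells. No gene differed from its neighbour in this order by more than the larger of the 2 SDs. Nid1 was the highest of the 9 per kilobase in 25 cells, Col4a1 in 13, Lamc1 in 7, Col4a2 in 2, and Lama5, Lamb2 and Lamb3 in 1 each. The transcript lengths used ran from 4867 bases for Lamb3 to 14187 for Hspg2. How evenly the amplified cDNA covered such long transcripts was not tested.

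**Figure D3:**
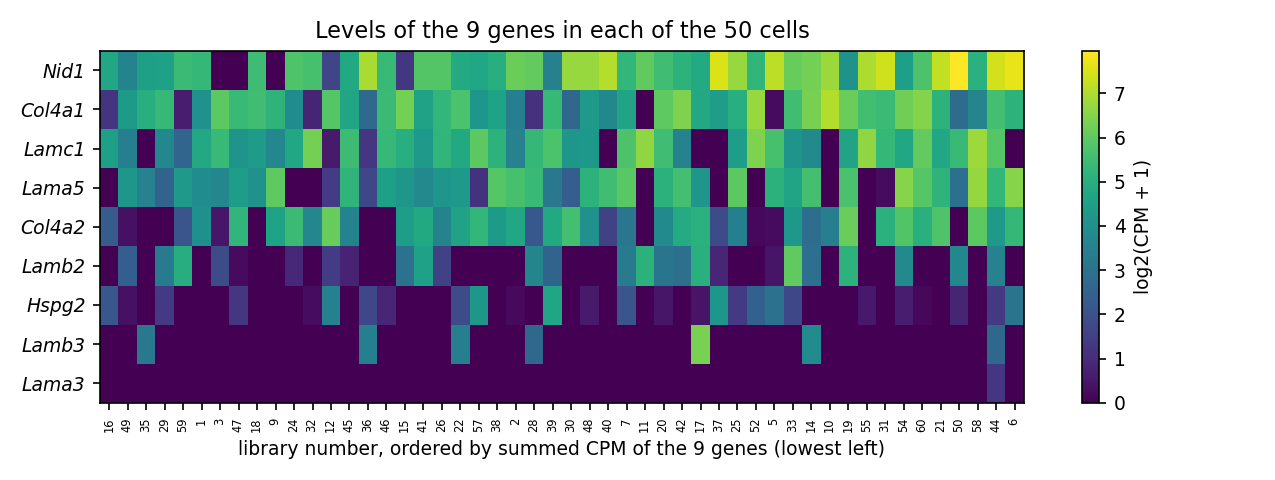
Levels of the 9 genes (rows, highest mean at the top) in each of the 50 libraries (columns, by summed CPM of the 9), as log2(CPM + 1). Bright and dark cells change places from row to row, and library 44 is the one column with all 9 genes above 0.

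Single cells carried different subsets of the genes. The number of the 9 genes above 0 ran from 3 to 9 per cell, with a median of 6. It was 5, 6 or 7 in 14, 16 and 12 libraries. Libraries 10 and 11 had 3, and library 44 had all 9. The summed level of the 9 genes ran from 56.8 CPM in library 16 to 378 CPM in library 6, with a mean of 192 ± 74.7 (SD, n = 50). If the genes varied without relation to each other, the SDs of the single genes would combine to 80.8 CPM. The observed SD of the sum was below that value, and whether this gap exceeds the error of sampling 50 cells was not tested. The sum had r = -0.086 with the number of genes above 0.

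The pairwise correlations were small. Over the 36 pairs the median Pearson r of log2(CPM + 1) was 0.017, with 21 pairs above 0 and a range from -0.32 to 0.29 (n = 50 libraries). The highest value was that of Lama5 with Col4a2, at r = 0.29 and rho = 0.32, with Col4a1 and Col4a2 close to it at 0.28. After thinning these values were 0.19 and 0.38, so their order depends on depth. The lowest was that of Lamb3 with Lamc1, at r = -0.32 and rho = -0.19, and it rests on the 7 libraries with Lamb3. After thinning, which left Lamb3 in 4 libraries, that r was -0.023. Col4a1 and Nid1 had r = -0.27 and rho = -0.26, but r = 0.27 over all 62 libraries. Among the chains of the Lama5 laminins, Lama5 and Lamc1 had r = 0.026, and Lamb2 had 0.16 with Lama5 and 0.044 with Lamc1. For the 7 widely found genes the median over 21 pairs was -0.0023. For all pairs of the 9282 genes that met the same mark it was 0.027, with 90% of pairs between -0.24 and 0.29. None of the 21 pairs lay above that range and 2 lay below it.

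**Figure D4:**
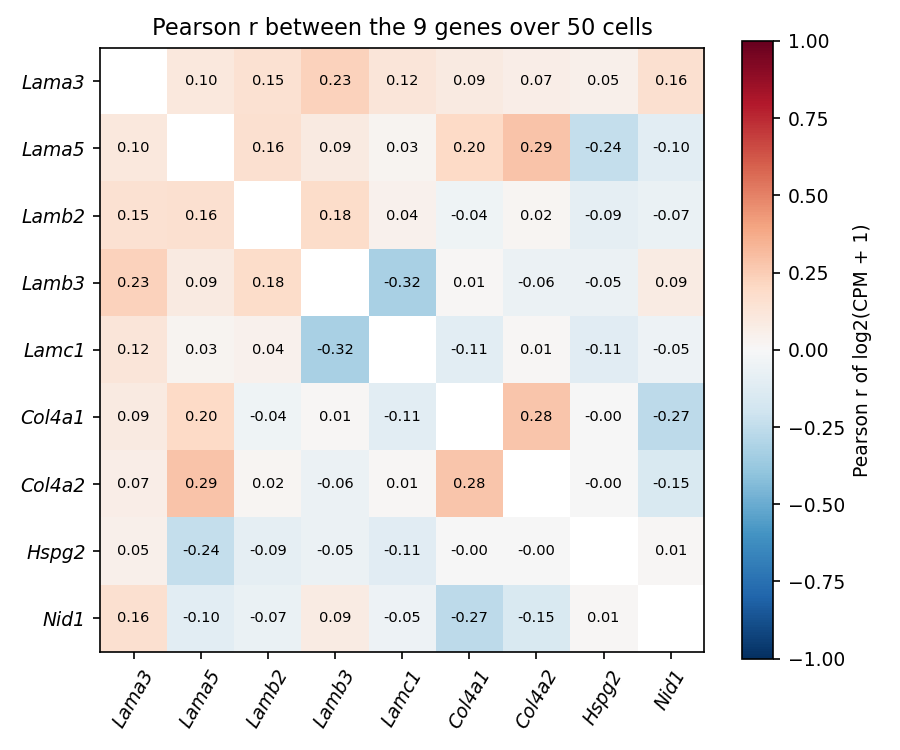
Pearson r of log2(CPM + 1) for each pair of the 9 genes over the 50 libraries, with colour from -1 (blue) to 1 (red). All values off the diagonal lie between -0.32 and 0.29.

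The spread of the genes was set beside that of all 12012 genes found in 10 or more libraries. The measure was the squared coefficient of variation relative to genes of the same mean level. Nid1 was at percentile 80.6, the highest of the 7 genes measured. Lamb2 was at 47.7, Hspg2 at 34.2, Lama5 at 31.9, Lamc1 at 28.4, Col4a1 at 28.1 and Col4a2 at 20. The collagen chains and Lamc1 therefore varied less than most genes of their level. Hspg2 moved to percentile 90.7 and Lamb2 to 68.6 when the 9282 widely found genes alone were compared, so their places depend on that choice. Lamb3, measured over genes found in 3 or more libraries, was at 92.4.

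The genes most alike to each of the 7 were taken by Pearson r over the 50 libraries, among the 9282 widely found genes. The libraries share 1 group of cells and the scaling to a common total. For Lama5 they were Derl2, a component of endoplasmic reticulum degradation (0.58), Tmppe (0.58) and Cand2 (0.57). For Lamb2 they were P4hb, protein disulphide isomerase and a subunit of collagen prolyl hydroxylase (0.48), Gabarap (0.47) and D630003M21Rik (0.47). For Lamc1 they were Suco (0.55), Tnfrsf1a, a receptor for tumour necrosis factor (0.55), and Zfp638 (0.54). For Col4a1 they were Tgds (0.54), Rbm18 (0.53) and Pop4 (0.52). For Col4a2 they were Cyb5r4 (0.52), Wdhd1 (0.49) and Ndel1 (0.47). For Hspg2 they were Relb, an NF-kappaB subunit (0.51), Mir8112 (0.46) and Arhgap17 (0.46), and for Nid1 Smim14 (0.46), Ccdc127 (0.45) and Ngrn (0.44). None of the 9 genes was in another's list. The highest r that a gene has with any other had a median of 0.59 over the 9282 genes. Each of the 7 was below that median, and Nid1 was at percentile 0.603, so these likenesses are no closer than those of most genes.

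Other components of the basement membrane were present in part. Of 27 further components, all with a row, 8 were widely found, a smaller share than the 48.6% of all gene rows. In all 50 libraries 9 of them were at 0. The highest mean levels on the log2(CPM + 1) scale were those of Npnt, nephronectin, an integrin ligand (6.13 ± 1.47), Tinagl1, a matrix glycoprotein (5.89 ± 1.80), Fbln2, fibulin-2, a laminin- and nidogen-binding protein (3.69 ± 2.62), and Lamb1 (3.23 ± 2.34), each as mean ± SD over 50 cells. Agrn, agrin, a heparan sulphate proteoglycan like perlecan, was above 0 in 32 libraries and Col18a1, which carries endostatin, in 33. Interstitial matrix was sparser. Of its 19 genes 2 passed the mark, also a smaller share than the 48.6% of all gene rows. These were Fn1, fibronectin, in 38 libraries, and Col1a1 in 41 libraries but at 1 CPM in 1. Fn1 stood at 4.0 ± 2.81, Thbs1 at 2.23 ± 3.08, Col5a1 at 0.79 ± 1.67 and Vcan at 0.55 ± 1.43.

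**Figure D5:**
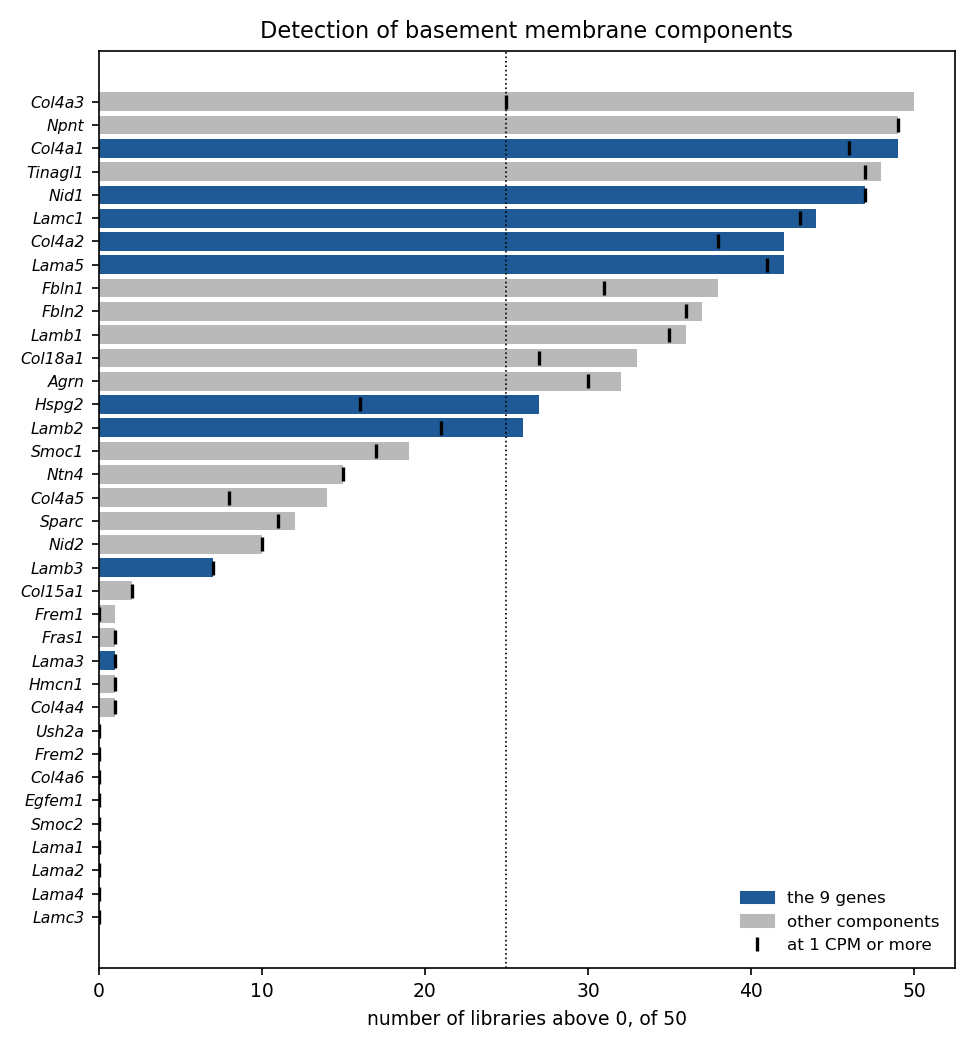
Number of the 50 libraries with each basement membrane component above 0 (bars, blue for the 9 genes and grey for the others) and at 1 CPM or more (ticks), with a dotted line at 25 libraries. The 5 widely detected genes of the 9 lie between 42 and 49, and Lamb3 and Lama3 at 7 and 1.

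Genes that fold, modify and export these proteins were mostly found. Of 27, 19 met the mark, against 48.6% of all gene rows, and each was found in at least 1 library. The highest were Pdia3 (9.90 ± 0.56), P4hb (9.50 ± 0.52), Pdia6 (8.51 ± 0.66) and Ppib (8.29 ± 0.54), a set of isomerases of the endoplasmic reticulum, as log2(CPM + 1). Colgalt1, which adds galactose to collagen, was above 0 in all 50, and Mia3, needed for collagen export, in 49. Serpinh1, the collagen chaperone HSP47, was above 0 in 15, and the lysyl hydroxylases Plod1, Plod2 and Plod3 in 11, 20 and 32. Pxdn, peroxidasin, which cross-links type IV collagen, was above 0 in 16.

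Receptor genes were mostly found. Of 22 measured receptor and hemidesmosome genes, 19 were widely found, against 48.6% of all gene rows, and Col17a1 had no row. The highest were Rpsa, a ribosomal protein also known as a laminin receptor (9.98 ± 0.40), the integrin subunit Itgb1 (7.81 ± 0.95), the syndecan Sdc1 (7.11 ± 0.79) and the laminin-binding subunit Itga6 (6.46 ± 1.32), as log2(CPM + 1). Itgb4, the partner of Itga6 in hemidesmosomes, was above 0 in 25 libraries and reached 1 CPM in 17. Of 21 measured genes for cleavage and its inhibitors, 10 passed the mark, a share near the 48.6% of all gene rows. The highest were the cathepsins Ctsl (8.83 ± 0.51) and Ctsb (8.71 ± 0.65), the inhibitor Timp2 (7.95 ± 0.69) and Plat (5.68 ± 3.76). Mmp2 and Mmp9, the gelatinases that cleave type IV collagen, were at 0 in all 50, and the membrane protease Mmp14 was above 0 in 42.

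The libraries nearest to the 20% threshold of the spike-in share were library 14 below it, at 1.83%, and library 56 above it, at 22.3%, with no library between them. In library 14 Lama5 was at 47.7 CPM, Col4a1 at 78.7, Col4a2 at 6.14 and Nid1 at 77.4. In library 56 the same genes were at 993, 267, 34.4 and 52.9 CPM.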

How the data were processed

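The deposited table gives the authors' estimated counts for 62 single-cell libraries, 1 row per gene symbol. The submitters' processing notes name kallisto and the build mm9. The kallisto version, the annotation and how transcripts were joined into genes are not stated there. The table has 19177 rows, and its 65 spike-in rows did not enter the library totals. CPM values are unrounded counts over the sum of gene rows, taken to log2 with a pseudocount of 1. No count model or doublet caller was run, and p-values were not computed, because the cells form 1 group with no separate cultures named and are not replicates. Alternatives were a pseudocount of 0.1, median-of-ratios size factors (2179 genes), all 62 libraries, rounding and thinning to 100000 gene counts, detected genes regressed out, and centring within 8 blocks of 12 label numbers. Variability was the residual over a lowess trend (fraction 0.3). Shares carry exact Clopper-Pearson 95% intervals. Transcript lengths came from GENCODE for GRCm38, not the authors' build. In it, 22 bases of the Col4a1 and Col4a2 transcripts overlap on opposite strands, and Col4a2 and Nid1 transcripts share 65 and 143 bases in all with genes on the other strand; the library kit is not stated to keep strand.

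The genes and lists were chosen with earlier results of these data known. Named were all 9 genes, the 4 of highest mean level in each other list, the 2 most often found markers of each cell type, laminin and type IV collagen chains that complete trimers, and the 3 genes most alike to each gene. Other named genes (such as Nid2, Agrn, Col18a1, Itgb4, Serpinh1 and the Plod and Mmp genes) were picked with their values in view. A chain set planned for this description is not reported here. The variability measure and the search for the genes most alike were tested on simulated counts. That simulation held no loss of molecules at capture. Python 3.11.15, numpy 2.4.6, pandas 2.3.3, scipy 1.17.1 and statsmodels 0.14.6 were used.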

Additional observations from a re-analysis of the deposited data

Results flagged for a closer look

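The 12 spike-in-rich libraries were outside the description, and 5 of the 9 genes had their highest value of all 62 libraries there. Lama5 reached 993 CPM in library 56, from 1126 counts, against at most 104 CPM in the 50 libraries. Col4a1 was at 267 CPM in the same library, from 303 counts, against at most 131 CPM. Col4a2 reached 408 CPM in library 8, from 358 counts, against at most 70.1 CPM. Lamb2 reached 108 CPM in library 43, from 42 counts, and Lamb3 100.2 CPM in library 13, from 27 counts. Of the 12 libraries 4 were above 0 for Lama5, 5 each for Col4a1 and Col4a2, 3 each for Lamb2 and Nid1, 2 each for Lamc1 and Hspg2, 1 for Lamb3 and 0 for Lama3. These libraries had a median of 1940 genes above 0 and between 112196 and 1133747 gene counts, and the part of low RNA input in these values was not tested.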

How the results depend on the processing

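No paired analysis was possible because the libraries form 1 group. Limits were a change of 0.1 in r, 1 SD in a level, 10 points in a percentile and 1.5 times in a count or an SD. Over all 62 libraries the median r of the 36 pairs rose to 0.13 and that of Col4a1 with Col4a2 to 0.45. The latter was 0.38 after thinning (where Lama3 had no count and 28 pairs were left for the median) and 0.14 without the 2 farthest libraries. It was 0.30 over the 42 libraries with both genes, an alternative added after seeing the data, as were detection at 10 counts, the ratio of these genes at 10 counts of each, and the alternatives for 3 other pairs. Of these pairs, Col4a1 with Nid1 turned from -0.27 to 0.27 over all 62 libraries, Lama5 with Col4a2 moved to 0.44 there and to 0.19 after thinning, and Lamb3 with Lamc1 moved to -0.023 after thinning. Thinning lowered the cells with all chains to 19 for Lama5, Lamb1 and Lamc1, to 7 for Lama5, Lamb2 and Lamc1, to 25 for Col4a1 and Col4a2, and from 1 to 0 for each set of Lama3 with Lamc1 and either Lamb1 or Lamb2. With a pseudocount of 0.1 the mean log2 level over the 9 genes was 1.3, against 2.67, by construction of the scale. Of 99 values recomputed under alternatives, 79 stayed within these limits, many of them levels of single genes judged by the limit of 1 SD. Among the values for the main results, 24 stayed within the limits and 10 moved. The fall from 7 to 5 widely found genes was within the limit of 1.5 times. A value of 0 in a single-cell library does not show that a gene such as Lama3 is absent from the cell.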
